A study of Macaca mulatta with 56 samples.

Results

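Occipital cortex, the visual part of the cerebral cortex, was compared between estradiol-treated and placebo-treated old female rhesus macaques. The comparison rests on the 14 occipital libraries of a series of 56, which also sampled amygdala, hippocampus and prefrontal cortex of the same animals. They were chosen by the region in their labels, 1 library per animal. The 7 OvH-HT animals (36 to 42, called HT here) had their ovaries and uterus removed and at once received elastomer capsules of estradiol, which held serum estradiol at 82.1 ± 0.9 pg/mL. The 7 OvH animals (30 to 35 and 43) had the same surgery and received empty capsules, with serum estradiol at 6.6 ± 0.2 pg/mL. The labels do not say what the ± is. Both groups were 19.4 to 23.2 years old and were fed a Western-style diet in which fat gave 36% and sugars 18.5% of the calories (13% and 6% in chow). The surgery came about 6 weeks after the diet began, and brains were collected after 30 months by 1 statement, while serum estradiol is given as an average over 32 months. No animal with ovaries and no animal on chow was included, so the comparison is of hormone replacement against its lack within an ovariectomized, diet-fed background. RNA came from about 30 mg of pulverized tissue, so each value sums over neurons, glia and vessels. In such bulk samples fewer cells of a type and less RNA per cell cannot be told apart.

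Estradiol acts mainly through the nuclear receptors ESR1 and ESR2, which bind DNA directly or through other transcription factors, and through the membrane receptor GPER1. In cortex it is known for effects on dendritic spines, on energy use and on cerebral vessels. Receptor-bound genes are recruited with coactivators such as the NCOA proteins and silenced with corepressors such as NCOR1.

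Each library held 51.6 to 77.0 mega-reads in HT animals (median 61.0) and 49.7 to 82.9 mega-reads in OvH animals (median 66.8), and mean depth did not differ beyond its spread (two-sided exact permutation p = 0.528). Values below are the authors' upper-quartile normalized read counts, and differences are HT minus OvH on the log2(value + 1) scale with the standard error from limma, which understates changes of low genes. Row identifiers of this table do not hold the same transcript in every region. Mean levels across rows had a Spearman correlation of 0.987 between occipital and prefrontal cortex and 0.978 between occipital cortex and hippocampus, but 0.535 between occipital cortex and amygdala, whose names were taken as plausible. A row was named where its mean log2 level over hippocampus, occipital and prefrontal libraries lay within 2 of that over amygdala. That held for 13520 of 17807 rows, or 75.9%, against 33.6% and 33.5% after moving the rows by 50 in either direction. From these shares an estimated 16.0% of the rows that pass carry a wrong name, so any single gene name below may be wrong. ESR1, PGR and GPER1 did not pass and are not described, and neither are the common cell markers MBP, GFAP and CAMK2A.

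The regional identity of the tissue was checked with marker genes. SLC17A6, a vesicular glutamate transporter, was 2074 to 4889.5 in occipital cortex, above the prefrontal maximum of 1044 in 14 of 14 animals. It was taken from the excitatory neuron markers, where TBR1 exceeded every prefrontal library in 7 of 14 and SLC17A7 in 0 of 14. NTNG1, a netrin expressed in layer 4 and thalamocortical circuits, exceeded every prefrontal library in 12 of 14 occipital libraries. FIBCD1, a gene of hippocampal pyramidal neurons, was 50.2 to 206 in occipital cortex, below the lowest hippocampal library at 226 in 14 of 14. The hippocampal median of FIBCD1 was 10468, and that lowest library was under the prefrontal minimum of 263, so it lay near cortical level. RORB, a further layer 4 gene, overlapped between occipital (552 to 3372) and prefrontal cortex (342 to 2377). In hippocampus RORB had a median of 137 but reached 4278. The hippocampal libraries were thus not uniform in these markers, and the reason was not tested. KCNH8, the last of the 3 layer 4 markers checked, also overlapped (672 to 1532 and 154 to 1597). For KCNH8, 0 of 14 occipital libraries exceeded every prefrontal library.

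No transcript was called between HT and OvH occipital cortex. Of 16138 rows with a mean of at least 10, 0 passed an adjusted p of 0.05 by limma (0%), and the smallest adjusted p was 0.374. At an unadjusted p under 0.05 there were 303 rows (1.88%), 110 higher and 193 lower in HT. This balance turned without animal 40, with 198 higher and 166 lower, with array weights, with 998 and 859, and without animals 34 and 40, with 376 and 319. On recovered reads edgeR's quasi-likelihood test and DESeq2 also called 0, with 358 rows (167 higher, 191 lower) and 440 rows (234 higher, 206 lower) at an unadjusted p under 0.05. The HT and OvH animals did not overlap in 6 rows (0.0372%), all 6 lower in HT. The median difference over all rows was 0.0019, and 50.4% were positive. The 95% interval lay inside a 2-fold change either way for 86.2% of the rows and inside 1.5-fold for 48.1%. With the animal as a random block over the 42 hippocampal, occipital and prefrontal libraries, the replicate block fit called 1 row, ENSMMUG00000058426, which is described below. The named genes below all had an adjusted p of 0.999 by limma, apart from that row, and the genes chosen for a small p are described by their values and not supported by them.

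The listed hormone receptors showed no call between HT and OvH cortex, and the 95% intervals of those named in this list all crossed 0. Of 17 receptors of steroid, thyroid, retinoid and vitamin D signalling, 13 could be described, 8 higher and 5 lower in HT, with a median difference of 0.074 beside 0.0019 over all rows. Without animal 40 the median was -0.025, with 6 of 13 higher. ESR2, estrogen receptor beta, was near the low-value limit, with 3.51 to 28.5 normalized reads in HT animals (median 12.5) and 5.62 to 16.6 in OvH animals (median 12.03). The groups overlapped over most of their range, and the difference of 0.037 ± 0.41 had a 95% interval of -0.84 to 0.91, wide enough to hold a change near 2-fold in either direction. NR3C1, the glucocorticoid receptor, was 3453 to 7961 in HT animals (median 5695) and 4589.6 to 6024 in OvH animals (median 4920.5). Its 95% interval of -0.21 to 0.42 left out a 1.5-fold change. RARB and PPARG, nuclear receptors outside this list, had an unadjusted p under 0.05 and are given below.

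**Figure D1:**
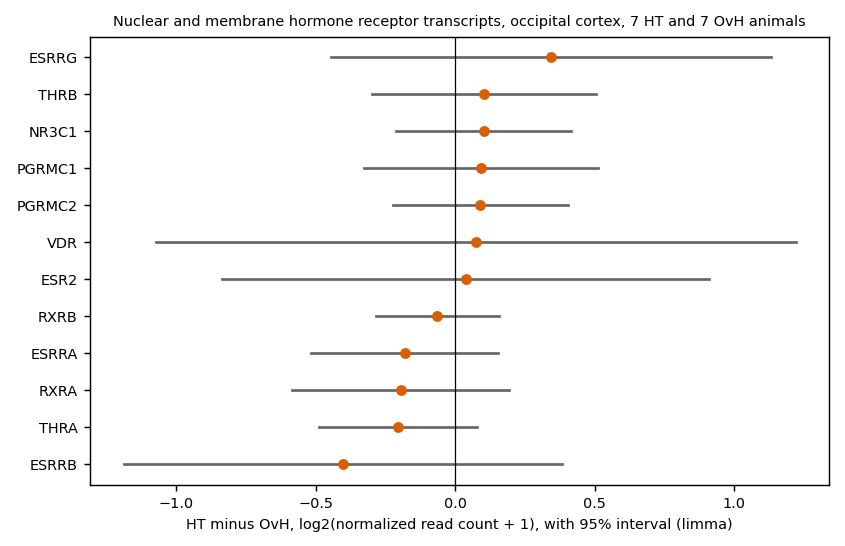
Difference in transcript level between HT and OvH occipital cortex (x axis, log2 of the normalized read count plus 1, HT minus OvH) for 12 hormone receptor genes (y axis). Points are limma estimates from 7 HT and 7 OvH animals, and bars are 95% intervals; every bar crosses 0.

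The orphan estrogen-related receptors, which share DNA sites with ESR1 but do not bind estradiol and regulate mitochondrial genes, differed in sign. HT animals had 3284 to 6447 normalized reads of ESRRA (median 4556), and OvH animals had 4316 to 6409 (median 5075), a difference of -0.18 ± 0.16. ESRRG had the largest positive difference of the receptors at 0.34 ± 0.37, with HT animals from 398 to 2003 and OvH animals from 440.2 to 1934, so both groups spanned nearly the same range. ESRRB had a difference of -0.40 ± 0.37. THRA, the thyroid hormone receptor most abundant in brain, was 17585 to 30213 in HT and 21798 to 34645 in OvH animals, a difference of -0.21 ± 0.14, and 1 HT animal exceeded the median of the OvH animals. THRB, its paralog, had 0.10 ± 0.19, RXRA -0.20 ± 0.18 and RXRB -0.065 ± 0.10, the shared partners of these receptors. PGRMC1, a membrane-associated heme and progesterone-binding protein, was 6379 to 17196 in HT animals, where the top value came from animal 40, and 5905 to 10696 in OvH animals. Its difference of 0.093 ± 0.20 was -0.087 without animal 40, and that of PGRMC2, 0.090 ± 0.15, was -0.025. VDR, the vitamin D receptor, had 0.074 ± 0.54.

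Among 21 coregulators of nuclear receptors, 19 could be described, 8 higher and 11 lower, with a median of -0.014 (-0.10 without animal 42, 0.094 without animal 40). Here and for the lists below, the brackets hold the lowest and the highest median when 1 animal was left out. NRIP2, which binds nuclear receptors and represses them, was the only member with an unadjusted p under 0.05. HT animals had 489.5 to 1421 normalized reads of it (median 955) and OvH animals 1099.7 to 1764 (median 1573), 5 of 7 HT animals below every OvH animal. Its difference was -0.70 ± 0.21 in occipital cortex, -0.51 in prefrontal cortex and -0.42 in hippocampus of the same animals. NCOA4, a coactivator that also delivers ferritin for breakdown, was 7123 to 10992 in HT animals against 7425 to 9149.8 in OvH animals. Of 12 described enzymes of estrogen synthesis and breakdown, 5 were higher and 7 lower, with a median of -0.12 (-0.14 without animal 39, 0.036 without animal 40). CYP1B1, which hydroxylates estradiol, had 272 at the HT median and 149.8 at the OvH median, a difference of 0.59 ± 0.34, with overlapping groups.

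A list of 20 described genes known to respond to estrogen in other tissues had 13 higher and 7 lower members and a median of 0.088 (0.021 without animal 31, 0.11 without animal 32), with 0 below an unadjusted p of 0.05. CAV1, caveolin-1 of vessel walls, was nearest, with 508 to 893 in HT animals (median 833) and 450.4 to 859.9 in OvH animals (median 576). KRT19, an epithelial keratin induced in breast cancer cells, went the other way, with 7.46 to 167 in HT animals and 32.4 to 139 in OvH animals, a difference of -0.97 ± 0.52.

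Of the 12 named genes with the smallest p among those higher in HT, PAQR8 had the narrowest interval. PAQR8 encodes a membrane progestin receptor. It ran from 8445 to 12511 in HT animals and from 6839 to 8981 in OvH animals, and 6 of 7 HT animals lay above every OvH animal. The difference was 0.33 ± 0.11, with 0.35 in prefrontal cortex and 0.25 in hippocampus. CCNL2, cyclin L2 of the splicing machinery, had the smallest p of the 12. HT animals had 192 to 429 normalized reads of CCNL2 (median 248), and OvH animals had 99.0 to 241 (median 134), a difference of 0.86 ± 0.23, with 4 of 7 HT animals above all OvH animals. CD93, a receptor of endothelial cells, had 180.4 to 398 in HT animals and 113 to 279 in OvH animals, 4 of 7 HT animals lying above all OvH animals. RARB, retinoic acid receptor beta, was 1375 to 2275 in HT and 1089 to 1675 in OvH animals. Its difference of 0.37 ± 0.14 stood beside 0.0059 in prefrontal cortex and -0.28 in hippocampus. The hippocampal medians of RARB were 431 in HT and 337 in OvH animals, whose libraries reached 1857 against 524 in HT.

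The remaining 8 higher genes were of mixed kinds. ANKRD34B, an ankyrin repeat gene, lay above all OvH animals in 6 of 7 HT animals, with animal 37 low at 385. ZNF518B and ZSCAN26, both zinc finger genes, had differences of 0.96 ± 0.31 and 0.44 ± 0.16. CPA4, a carboxypeptidase, had 1.03 ± 0.30, KIAA1755 had 0.83 ± 0.25 and MPP4, a scaffold of photoreceptor synapses, had 0.85 ± 0.33. CFAP46, an axoneme protein of cilia, had 0.44 ± 0.16. IL3RA, the interleukin-3 receptor alpha chain, had the largest value at 2.84 ± 1.04 and split by animal, as given below.

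Of the 12 lower genes, SCNN1D was the one whose groups did not overlap. SCNN1D encodes the delta subunit of the epithelial sodium channel. HT animals had 5.20 to 24.2 normalized reads and OvH animals 26.8 to 40.8, so all 7 HT animals were below all 7 OvH animals, as in 0.0372% of rows. The difference of -0.96 ± 0.31 stood beside -0.45 in prefrontal cortex and 0.18 in hippocampus. SNTG2, a syntrophin that binds the dystrophin complex, had 104 to 316 normalized reads in HT and 252 to 583 in OvH animals. It lay below all OvH animals in 6 of 7 HT animals. The difference of SNTG2 was -0.90 ± 0.26 in occipital cortex, -0.049 in prefrontal cortex and -0.42 in hippocampus. LNX2, a ubiquitin ligase of NUMB, was 289.8 at the HT median and 488 at the OvH median, with 6 of 7 HT animals below all OvH animals. SFN, the 14-3-3 sigma protein, was likewise below in 6 of 7, at 10.3 against 21.3.

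The other lower genes included some with few reads. MYH13, an eye muscle myosin, CCDC33 and PI15, a peptidase inhibitor, had differences of -1.12 ± 0.34, -1.59 ± 0.50 and -1.68 ± 0.54, from HT medians of 15.4, 10.9 and 4.53 normalized reads. PRAM1, an adaptor of myeloid cells, had -0.72 ± 0.23 and MARCHF10, a ubiquitin ligase, -0.83 ± 0.28. DNAJB13, an axonemal protein, had more reads, with HT animals from 1792 to 4608 and OvH animals from 3104 to 5151. PSMC3IP, a partner of meiotic recombinases that also coactivates nuclear receptors, had -0.48 ± 0.15, with 5 of 7 HT animals below all OvH animals.

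**Figure D2:**
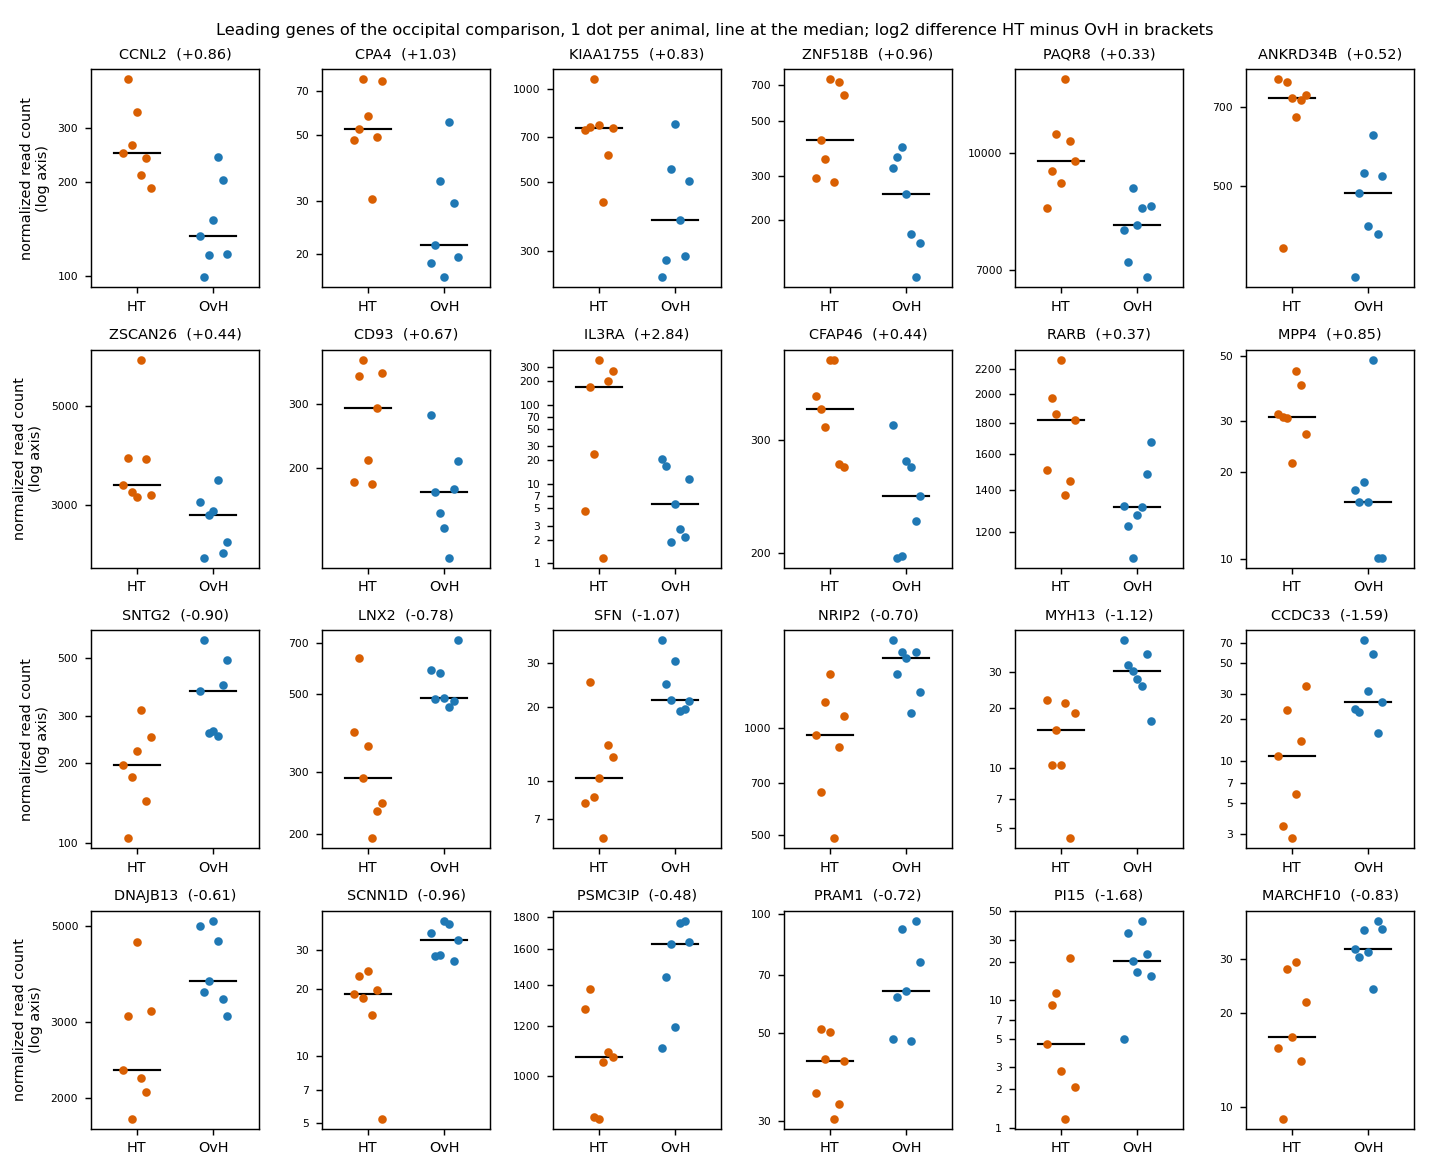
Normalized read counts (y axis, logarithmic, a range of its own in each panel) of the 12 genes with the smallest p that were higher in HT (top 2 rows) and the 12 that were lower (bottom 2 rows). Dots are animals, 7 HT at left and 7 OvH at right, and lines are medians; SCNN1D is the panel where the groups do not overlap.

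In occipital cortex some transcripts were near absent in some animals and abundant in others. The row ENSMMUG00000058426, which has no symbol in the tables used and was chosen after its values were seen, had 0.907 to 20.1 normalized reads in 6 HT animals and 222 in HT animal 42, against 96.4 to 411 in the 7 OvH animals. Animal 42 was thus the only HT animal within the OvH range. The difference of -4.45 ± 0.77 had an adjusted p of 0.374 by limma, 0.0127 in the replicate block fit and 1.12e-04 by limma without animal 42. That last fit leaves out the only HT animal that went against the split, so its p is no support. In prefrontal cortex the same 6 HT animals were at or below 21.3 and animal 42 at 99.4, while OvH animals had 81.9 to 212. In hippocampus 2 OvH libraries departed from their animals, number 30 at 10.98 and number 43 at 5.40, where the other 5 had 96.6 to 263. IL3RA was 169, 374, 201 and 272 in HT animals 37, 39, 41 and 42, 23.99 in animal 38 and under 5 in animals 36 and 40, against 1.85 to 21.1 in OvH animals. The same 4 HT animals were high in prefrontal cortex, at 121 to 425. TDRD5, a piRNA pathway gene of germ cells, went the other way: OvH animals 31, 32, 35 and 43 had 95.5 to 130.4 and animals 30, 33 and 34 at most 3.71, while HT animals had 0 to 12.1. In prefrontal cortex the same 4 OvH animals led, at 69.2 to 209, while in hippocampus HT animals had 22.9 to 92.5 and OvH animals 0.844 to 170.0, which overlap. The 0.844 was that of OvH animal 30, and the other OvH animals had 33.9 to 170.0 there. Hippocampal IL3RA of OvH animal 43 was 126, where its occipital value was 11.7. TDRD5 of the HT animals was higher in hippocampus than in occipital cortex, so its level differed by region as well as by animal. What sets these levels in an animal or a region was not tested.

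**Figure D3:**
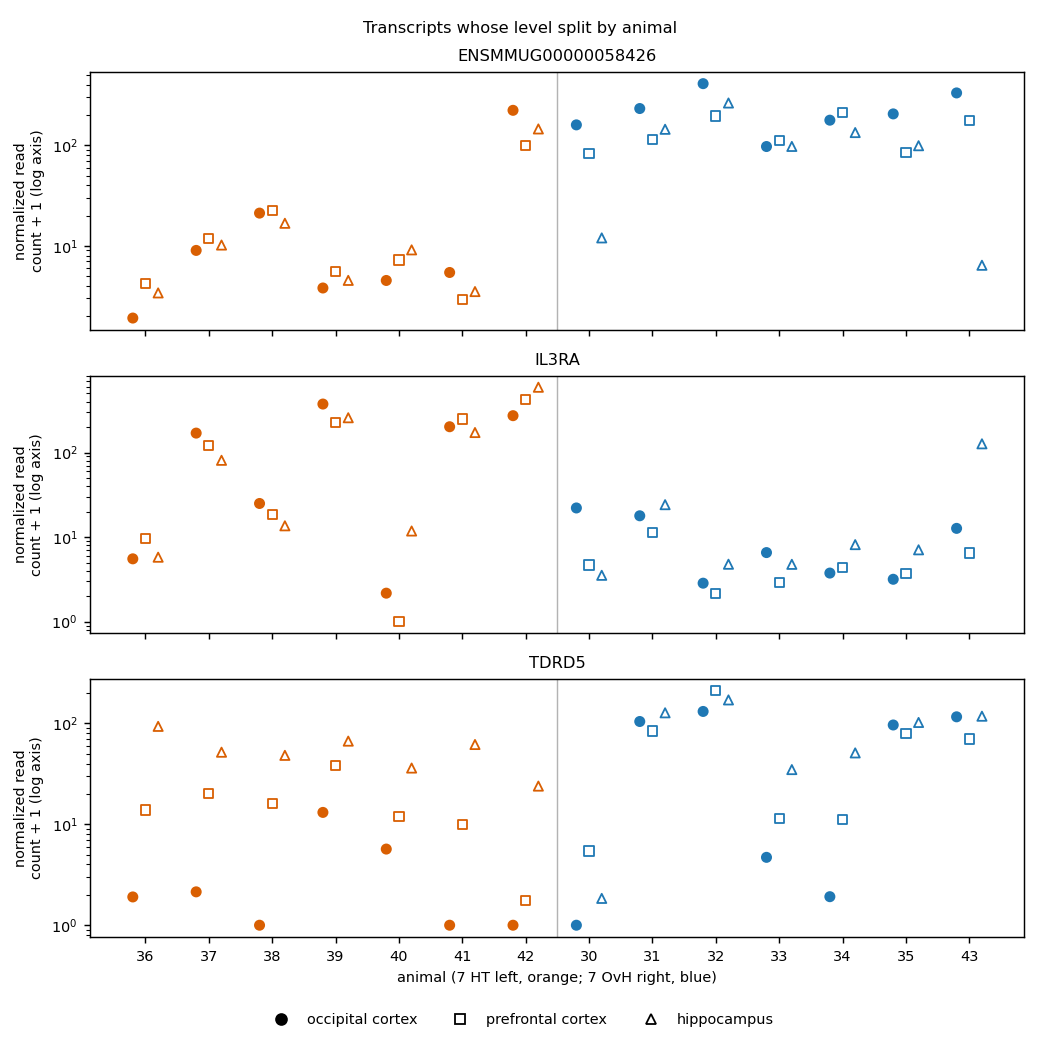
Normalized read counts plus 1 (y axis, logarithmic) of ENSMMUG00000058426, IL3RA and TDRD5 by animal (x axis, 7 HT in orange at left, 7 OvH in blue at right). Filled circles are occipital cortex, squares prefrontal cortex and triangles hippocampus; IL3RA is high in HT animals 37, 39, 41 and 42 in all 3 regions.

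The largest list medians were those of cell type markers. Over 37 lists with 704 described members, 22 medians were positive, 15 were negative and 28 lay within 0.1 of 0, and 19 members had an unadjusted p under 0.05, which is 2.7% beside 1.88% of all rows. All 9 described meningeal fibroblast markers were higher in HT, with a median of 0.44 (0.26 without animal 32, 0.63 without animal 41). It was 0.32 without animal 40 and 0.39 without animals 34 and 40. The list leaned the same way in the other regions of these animals. Its median was 0.70 in prefrontal cortex, with 8 of 9 higher, and 0.71 in hippocampus, with 9 of 9 higher. LUM, lumican of collagen fibrils, had 157 to 1337 normalized reads in HT animals, the top value in animal 40, against 57.2 to 376 in OvH animals. DCN, decorin, had 1678 to 8048 in HT and 1201 to 4856 in OvH animals. The summed level of the 9 ran from 5472 to 19526 in HT animals and 4232 to 11940.3 in OvH animals, so the groups overlapped.

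Of 18 described endothelial markers, 13 were higher, with a median of 0.16 (0.083 without animal 37, 0.23 without animal 30). TEK, the angiopoietin receptor, was 496 to 780.3 in HT and 357 to 647 in OvH animals, a difference of 0.40 ± 0.17. ERG, the transcription factor that keeps endothelial identity, had 0.33 ± 0.16. Both had an unadjusted p under 0.05, and the summed level of the list was 30359.7 to 51880.1 in HT and 24230.4 to 42970.3 in OvH animals. The endothelial gene CD93 above was higher in HT, as was the median of this list. Whether the 2 go together across animals, and the part of vessel content in the CD93 value, were not tested. Mural markers, of pericytes and smooth muscle, were 6 of 11 higher with a median of 0.021 (-0.16 without animal 37, 0.13 without animal 36).

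The medians of glial and neuronal markers ran from -0.086 to 0.19. Precursor markers were 8 of 10 higher with a median of 0.19 (0.12 without animal 30, 0.22 without animal 32), led by PTPRZ1, a receptor phosphatase, at 0.28 ± 0.13, and 1 of the 10 had an unadjusted p under 0.05. Astrocyte markers were 8 of 14 higher with a median of 0.12 (0.056 without animal 35, 0.18 without animal 33). Within that list SLC1A3, the glutamate transporter GLAST, was 59868 to 75352 in HT animals against 50623 to 65581 in OvH animals, while ALDH1L1, the folate enzyme that marks astrocytes, had a difference of -0.31 ± 0.15. Oligodendrocyte markers were 8 of 12 higher with a median of 0.090 (-0.047 without animal 43, 0.27 without animal 33), and microglia markers 7 of 16 higher with a median of -0.086 (-0.15 without animal 37, 0.050 without animal 42). Neuronal markers were 8 of 14 higher with a median of 0.053 (0.0091 without animal 33, 0.068 without animal 30). Excitatory markers were 4 of 9 higher with a median of -0.021 (-0.10 without animal 34, 0.050 without animal 37), and inhibitory markers 7 of 14 with 0.038 (-0.016 without animal 40, 0.085 without animal 37). SNAP25, a presynaptic SNARE protein, had 0.12 ± 0.12. Among 4 choroid plexus markers 1 was higher, and 0 without animal 40, with a median of -0.30 (-0.56 without animal 40, -0.12 without animal 39). CLDN1 had -0.78 and was the 1 member of the 4 with an unadjusted p under 0.05, beside 1.88% of all rows. TTR, the transthyretin gene, ran from 78.3 to 3126 in HT and 197 to 1282 in OvH animals. The hippocampal list, a check for tissue from the wrong region, was 2 of 8 higher with a median of -0.13 (-0.22 without animal 42, -0.026 without animal 31). Only 2 blood markers could be described, HBA and AHSP, with medians of 56.2 and 63.3 in HT animals and 70.7 and 59.2 in OvH animals.

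**Figure D4:**
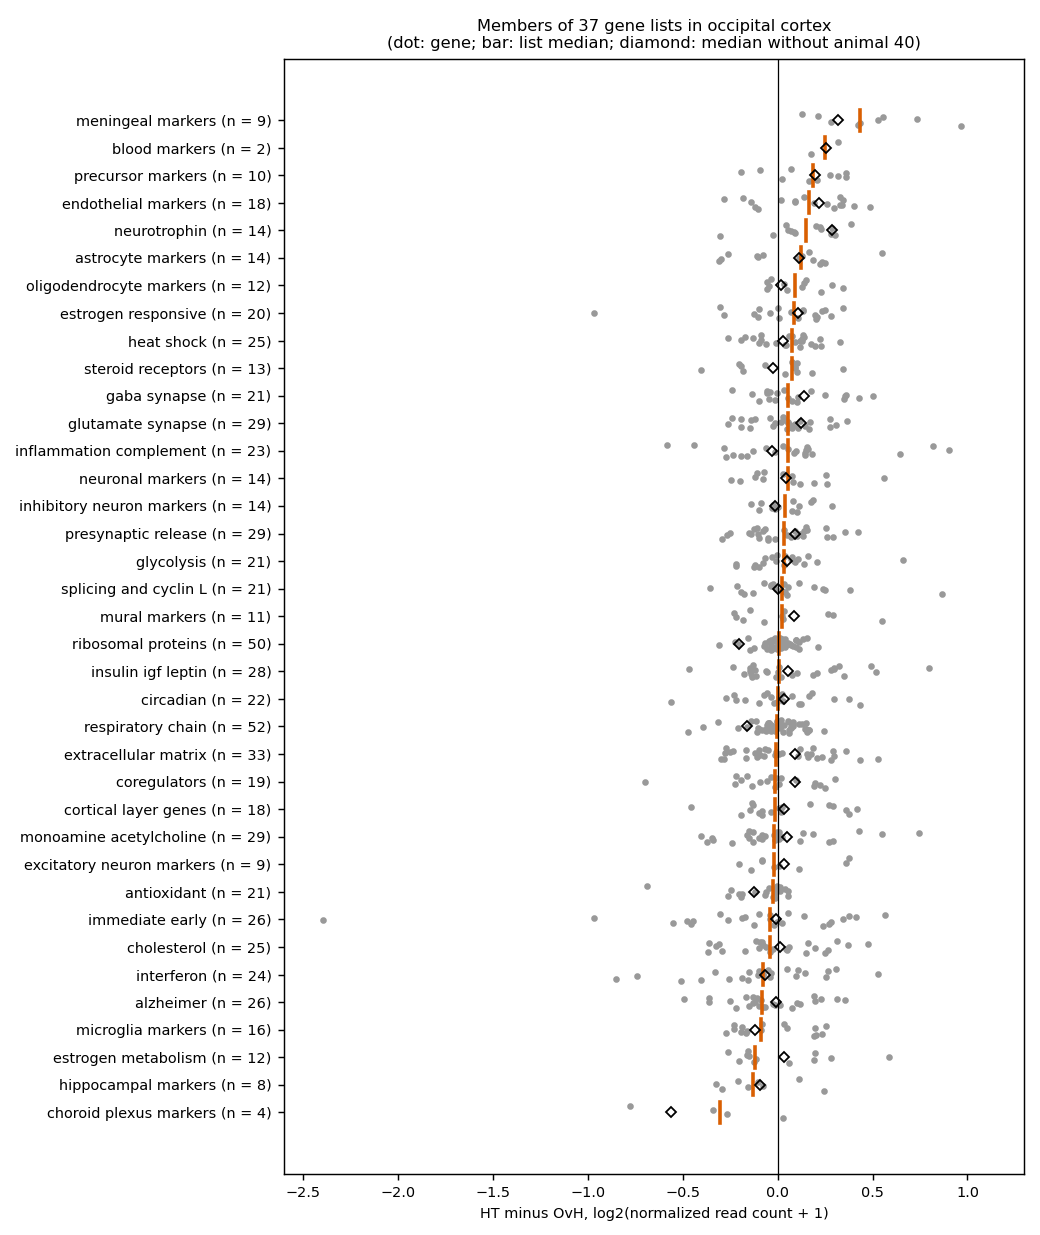
Differences between HT and OvH occipital cortex (x axis, log2 of the normalized read count plus 1, HT minus OvH) for the described members of 37 gene lists (y axis, n in brackets). Dots are genes, bars are list medians and diamonds are medians without animal 40; the meningeal list sits farthest right at 0.44 and the ribosomal list lies at 0.0056, or at -0.20 without animal 40.

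Synaptic genes had medians that moved with single animals. Glutamate synapse genes were 19 of 29 higher with a median of 0.054 (-0.042 without animal 42, 0.13 without animal 40), inhibitory synapse genes 12 of 21 with 0.057 (-0.028 without animal 34, 0.14 without animal 40), and presynaptic release genes 15 of 29 with 0.033 (-0.070 without animal 42, 0.10 without animal 43). Without animal 40 the counts of these 3 lists were 22 of 29, 17 of 21 and 22 of 29 higher, and the presynaptic median was 0.091. GABRA2, a GABA receptor subunit, had a difference of 0.43 ± 0.22, and RIMS1, an active zone organizer, 0.35 ± 0.20. Among monoamine and acetylcholine genes 11 of 29 were higher, with a median of -0.017 (-0.12 without animal 34, 0.049 without animal 40). Examples were DRD1, the D1 dopamine receptor, at -0.34 ± 0.17 and CHRNA4, a nicotinic receptor subunit, at 0.74 ± 0.38. Neurotrophin and CREB genes were 12 of 14 higher with a median of 0.15 (0.11 without animal 38, 0.29 without animal 40) and 0 under an unadjusted p of 0.05. FGF2, fibroblast growth factor, had 0.38 ± 0.25. Immediate early genes were 10 of 26 higher with a median of -0.040 (-0.18 without animal 37, 0.028 without animal 30). NPAS4, which neurons induce with activity, ranged from 1.17 to 426 in HT and from 4.63 to 1178 in OvH animals, and its difference of -2.40 ± 1.28 was smaller than the spread within either group. Cortical layer genes were 9 of 18 higher with a median of -0.014 (-0.095 without animal 33, 0.038 without animal 31).

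Genes of energy, lipid and insulin handling were mixed. Cholesterol synthesis genes were 11 of 25 higher with a median of -0.042 (-0.084 without animal 35, 0.034 without animal 33). MVK and PMVK, the kinases that act on mevalonate in turn, both had an unadjusted p under 0.05. MVK was 502 to 1084 in HT and 932 to 1299 in OvH animals, a difference of -0.36 ± 0.16, and PMVK had -0.29 ± 0.14. Insulin, IGF and leptin genes were 15 of 28 higher with a median of 0.0050 (-0.054 without animal 42, 0.083 without animal 31). SOCS3, which limits leptin and cytokine signalling, was 323 to 1484 in HT, the top value in animal 37, and 184 to 569 in OvH animals. PPARG, the receptor behind fat cell formation, had 0.49 ± 0.21. Glycolysis genes were 11 of 21 higher with a median of 0.033 (-0.013 without animal 36, 0.047 without animal 40).

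Immune and stress genes were likewise spread around 0. Interferon genes were 8 of 24 higher with a median of -0.075 (-0.13 without animal 37, -0.017 without animal 33), and the antiviral genes MX1 and IFI44L had -0.51 ± 0.23 and -0.85 ± 0.39. Inflammation and complement genes were 13 of 23 higher with a median of 0.053 (-0.030 without animal 40, 0.12 without animal 36). IL1R1, the interleukin-1 receptor, was 39.0 to 214 in HT and 41.6 to 74.5 in OvH animals. Heat shock genes were 16 of 25 higher with a median of 0.077 (0.028 without animal 34, 0.10 without animal 32), with HSPH1, a chaperone of the HSP110 family, at 0.33 ± 0.14. Antioxidant genes were 6 of 21 higher with a median of -0.026 (-0.12 without animal 40, 0.028 without animal 34), and MT2A, a metallothionein, was 2503 at the HT median and 5173 at the OvH median, although HT animal 37 had 7924. Genes linked to Alzheimer's disease were 9 of 26 higher with a median of -0.082 (-0.11 without animal 34, -0.0093 without animal 40), with ABCA7, a lipid transporter, at -0.49 ± 0.22. Extracellular matrix genes were 16 of 33 higher with a median of -0.0084 (-0.088 without animal 34, 0.092 without animal 40), circadian genes 11 of 22 with 0.00078 (-0.051 without animal 42, 0.058 without animal 37), and splicing and cyclin L genes 11 of 21 with 0.022 (-0.019 without animal 33, 0.036 without animal 38). In the splicing list SRSF5, a splicing factor, had 0.38 ± 0.16. Without animal 40 the counts were 23 of 33 higher for extracellular matrix, 13 of 26 for Alzheimer's disease, 4 of 21 for antioxidant and 10 of 23 for inflammation genes.

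The ribosomal and respiratory lists, like several above, moved with single animals. Of 50 described ribosomal protein genes 26 were higher in HT and 24 lower, with a median of 0.0056. Without HT animal 40 the counts were 0 higher and 50 lower, with a median of -0.20, without OvH animal 34 the median was 0.15, and without both it was -0.045 with 11 higher and 39 lower. The summed ribosomal level was 4058174 in animal 40 and 3257325 in animal 34, against 1121181 to 2364895 in the other 6 HT animals and 1185147 to 2352050.3 in the other 6 OvH animals. Respiratory chain genes moved likewise, with 25 of 52 higher and a median of -0.0047 (-0.16 without animal 40, 0.10 without animal 34), and 3 of 52 higher without animal 40. Animal 40 also stood apart on the first principal component of the 14 libraries, which held 28.6% of the variance and did not separate the treatments (two-sided exact permutation p = 0.720), and neither did the second (15.0%, p = 0.195).

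**Figure D5:**
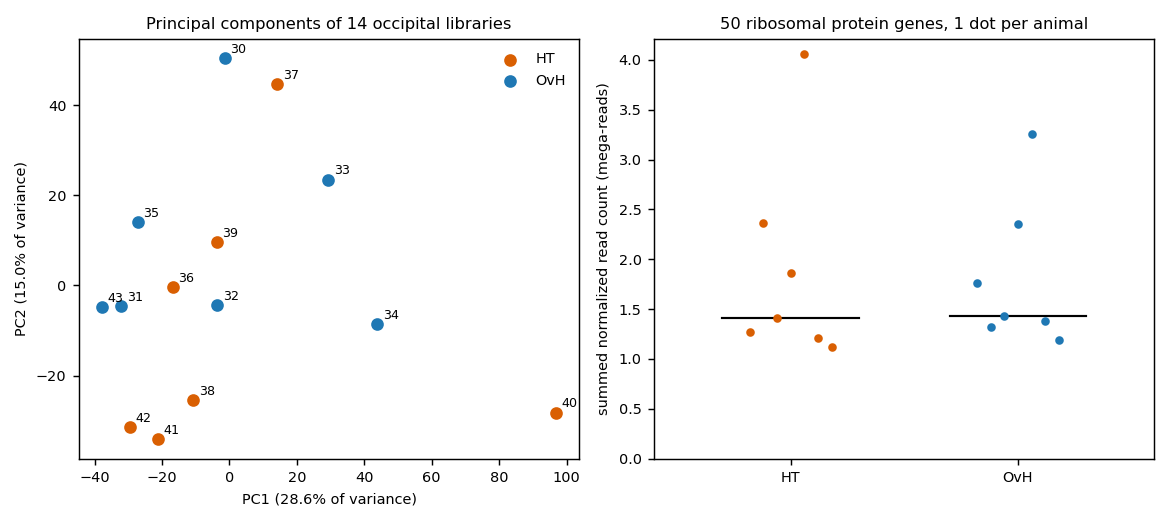
Left, first and second principal components of the 14 occipital libraries (x and y axes, component scores), labelled by animal, HT in orange and OvH in blue; animal 40 lies at 97.0 on the first. Right, summed normalized read counts of 50 ribosomal protein genes (y axis, in mega-reads) for 7 HT and 7 OvH animals, with medians as lines; animal 40 among HT and animal 34 among OvH lie highest.

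The effect of estradiol in occipital cortex was set against its effect in the other regions of the same animals. Over 16259 rows the difference between the occipital and the prefrontal effect called 0 (0%) by limma on within-animal differences, with 80 rows at an unadjusted p under 0.05, and over 16342 rows the difference from hippocampus called 0 (0%), with 142. The 5 genes with the smallest p in each test were chosen for that difference. SNTG2, at -0.42 in hippocampus, had -0.90 in occipital and -0.049 in prefrontal cortex. Its occipital minus prefrontal difference was -0.85, with a 95% interval of -1.41 to -0.29. SOX11, a transcription factor of young neurons, had 0.59 and -0.40, MESP2 -1.43 and -0.59, FCAR, an immunoglobulin A receptor, 0.99 and -0.41, and BTNL9 -0.33 and 0.67. Against hippocampus, PI15 had -1.68 in occipital cortex and 0.96 in hippocampus, MMP3, a matrix protease, 1.36 and -0.68, NMRK2 0.38 and -1.54, MYRFL -0.92 and 0.65, and TDRD5 -3.16 and -0.0067. Hippocampal TDRD5 was 0.844 in OvH library 30, against 33.9 to 170.0 in the other OvH libraries. The hippocampal comparison also holds libraries 30 and 43, which departed from their animals above, and without them it called 0 with 198 rows at an unadjusted p under 0.05. Among all its hippocampal libraries, the lowest FIBCD1 value was 226, against a median of 10468. The median half-width of the 95% interval was 0.51 for the prefrontal and 0.62 for the hippocampal difference.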

How the data were processed

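Messenger RNA of 14 occipital libraries, 7 OvH-HT and 7 OvH, was analysed, and groups and animal numbers came from the labels. The library kit was stranded, and reads were paired, 150 bases long. Per the submitters' processing notes, FastQC 0.1.1.2, Trimmomatic, STAR 2.7.3a, edgeR 3.28.0 and the build Mmul_10 were used; the counting program, its annotation and its strand setting are not given in the sources used here. The authors deposited upper-quartile normalized signal, that is read counts divided by a library factor, and the upper quartile was 2818.94 in all 56 libraries. Undoing the factor gave whole reads for 100% of values within 0.01 reads. No near-copies were found among the libraries (lowest chi-square per degree of freedom 53.95).

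Rows with an occipital mean of at least 10 were tested by limma 3.58.1, run in R 4.3.3, on log2(value + 1) with the prior variance following intensity, two-sided, with Benjamini-Hochberg adjustment and a threshold of 0.05. Region effects were compared on within-animal differences, paired by the animal number in the labels. Count tests used edgeR 4.0.16 and DESeq2 1.42.0 on recovered reads. The fits were tested on simulated data. Named genes had to be within 2 log2 units of amygdala, with a unique symbol and a mean of at least 10. They were the 12 with the smallest p in each direction, all receptors, 2 per list by p (for marker lists also 2 by level), rows called by an alternative and 5 per region test. Gene lists and members were chosen with earlier results of these data known. Alternatives were equal totals, a pseudocount of 10, no filter or a mean of at least 100, no trend, array weights, the replicate block, naming-rule rows only, the 2 count tests, and leaving out animals. Within the block fit the consensus correlation of libraries of an animal was 0.2145. Some genes that the rule selects are not reported here by name, though they stay in the list counts. No sequences are printed, because none of the tables used here hold them. The p-values measure the spread between animals.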

Additional observations from a re-analysis of the deposited data

Results flagged for a closer look

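Within each group of 7 animals, the gap of the highest or lowest animal to its nearest neighbour was divided by the group's range on the log2 scale and set against Dixon's 95% critical value. There were 23 such values in 268 groups (8.58%), where chance flags about 1 in 20 groups. Animal 40 accounted for 11 and animal 37 for 6.

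In HT animal 40 the normalized read count was 6351 for ZSCAN26, 17196 for PGRMC1, 4276 for PGRMC2 and 1337 for LUM, all above the rest of its group. It was below its group for VDR at 7.03, BCL11B at 15.2, SLC4A5 at 34.0, DRD1 at 2286 and ABCA7 at 336. The normalized total of animal 40 was 67.3 mega-reads and its first principal component score 97.0.

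In HT animal 37 the count was 664 for ERG, 54.8 for CLDN1, 426 for NPAS4, 1484 for SOCS3 and 7924 for MT2A, above its group, and 385 for ANKRD34B, below it. HT animal 39 had 1849 normalized reads of HBA, HT animal 38 had 55.6 of MYRFL and HT animal 42 had 5.20 of SCNN1D. Among OvH animals, number 33 had 107 normalized reads of MYRFL, number 34 had 48.6 of MPP4 and number 30 had 109032 of NRGN.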

How the results depend on the processing

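The count of 0 called rows in occipital cortex was also found under equal totals, a pseudocount of 10, no filter, a mean of at least 100, no intensity trend, array weights, rows within the naming rule, edgeR and DESeq2. Leaving out each animal in turn gave 0 to 1, the 1 being without animal 42, and the replicate block gave 1, in both cases ENSMMUG00000058426. Without animals 34 and 40 together, an alternative chosen after seeing the data, it was 0. At an unadjusted p under 0.05 there were 303 rows in the reported fit, 1857 with array weights, 738 without animal 34, 857 without animal 37, 200 without animal 38 and 695 without animals 34 and 40. Equal totals gave 126 rows higher and 153 lower at that level, edgeR 167 and 191, DESeq2 234 and 206, array weights 998 and 859, and the fit without animal 40 gave 198 and 166, against 110 and 193. Both region comparisons called 0 under every alternative run, including no replicate block and, against hippocampus, without animals 30 and 43. At an unadjusted p under 0.05, leaving out 1 animal gave 56 to 384 rows against prefrontal cortex (384 without animal 32) and 92 to 312 against hippocampus (312 without animal 34), where all animals gave 80 and 142.

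Of 130 named rows, 115 kept their direction under every alternative run, and 15 turned at least once, in 44 of 3221 values. Leaving out 1 animal gave log2 differences of -0.45 to 0.44 for TTR, -0.54 to 0.59 for HBA, -0.19 to 0.16 for TAGLN, -0.12 to 0.60 for VDR, -0.14 to 0.20 for SPP1, -0.18 to 0.27 for ESR2, -0.087 to 0.17 for PGRMC1, -0.025 to 0.14 for PGRMC2, -0.19 to 0.026 for WFS1, -0.024 to 0.19 for CALB1, -0.0072 to 0.28 for TF, -0.18 to 0.019 for ENO2, -0.0053 to 0.17 for SLC2A1 and -0.012 to 0.20 for THRB. DESeq2 gave -0.083 for HBA and 0.17 for MYRFL, against -0.92 for MYRFL by limma. Array weights gave -0.14 for TAGLN, -0.039 for CALB1 and -0.0061 for PGRMC1. Without animals 34 and 40 the values were -0.18 for TTR, -0.0030 for TAGLN, -0.058 for CALB1, -0.013 for SPP1 and -0.049 for PGRMC1. The cause was not tested. The median standard error was 0.21 over the rows tested and 0.16 over rows with a mean of at least 10000.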
